A study of Mus musculus with 4 samples.

Results

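The 6 genes described here, Prox1, Foxc2, Flt4, Lyve1, Pdpn and Reln, are markers and regulators of lymphatic endothelium, and they were taken by name out of 26182 gene entries with a curated RefSeq start site on mm10. Chromatin accessibility had been measured by ATAC-seq in nuclei of whole visceral adipose tissue from 8-week-old CD-1 mice, an outbred stock. In this assay a transposase cuts open DNA, and a peak is a site where the cut fragments pile up above the local background. The 2 control libraries came from mice descended from dams injected with sesame oil. The 2 BPA libraries came from untreated descendants of dams injected with bisphenol A (BPA), a plasticiser, in the abdominal cavity at 50 mg/kg each day from embryonic day 7.5 to 13.5. The labels place the BPA animals in another generation than the study's text does, and they give neither a sex nor a batch. The deposited list of the library labelled BPA 2 also carries another replicate number than its label, and the label was followed here. Without a labelled batch, a batch effect and the treatment cannot be told apart. Because whole tissue was used, fewer cells of a type and less open chromatin per cell cannot be told apart either.

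Lymphatic vessels drain fluid, immune cells and dietary lipid from tissues. Their endothelium arises mostly from veins, where Prox1, a homeobox transcription factor, sets lymphatic identity and is needed to keep it. Growth is driven by Vegfc and Vegfd acting on Flt4, the receptor tyrosine kinase VEGFR-3, and valves depend on Foxc2, a forkhead transcription factor. Lyve1, a hyaluronan receptor, and Pdpn, a mucin-like surface glycoprotein that binds the platelet receptor Clec1b, are the usual surface markers, while Reln is a large secreted glycoprotein of collecting vessels. None of these genes is limited to lymphatic cells. Lyve1 is also known in tissue macrophages, Pdpn in mesothelium and fibroblasts, Foxc2 in adipocytes and mesenchyme, Prox1 in hepatocytes and Reln in neurons.

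The 4 libraries held between 72375 and 98060 peaks each, and BPA 1 was the shallowest by its lowest local background of 1.16 reads, against 2.70 to 3.80 in the others. Each library had promoter peaks at all 6 adipocyte genes listed for the check, such as Pparg and Cidec, and at none of the 3 hepatocyte genes (Alb, Apoa1 and Ttr). Peaks were ranked within each list by the authors' q-value, so that a rank of 10% means that 10% of the peaks in that library were at least as strong. The fold is the summit pile-up over the local background, with 1 added to each. It differed between libraries at promoters in general. Among 13404 genes with a promoter peak in all 4 libraries, the median fold was 6.19 and 6.97 in the control libraries against 10.8 and 9.89 in the BPA libraries, and 86.1% of them had a higher fold in both BPA libraries than in both controls. Ranks, which are set within a library, were therefore used for comparisons. With 2 libraries a group an exact two-sided permutation test cannot give a p under 0.333, so no test between groups was run and differences are described by whether the groups overlapped, beside the share over all genes.

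A promoter peak, meaning a peak within 500 bp of a curated start site, was found in the controls for 4 and 3 of the 6 genes, and in the BPA libraries for 3 and 5. Over all protein-coding genes the shares with a promoter peak were 62.6% and 61.4% in controls and 64.1% and 67.4% in BPA. The mean was 3.50 ± 0.707 (SD, n = 2) for controls and 4.0 ± 1.41 (SD, n = 2) for BPA, and these differed by less than the spread between replicates. Every library had a promoter peak at Prox1 and at Foxc2, as at 51.2% of all genes. Lyve1 had one in both BPA libraries and neither control, a pattern seen at 2.65% of all genes. No member had the reverse pattern, seen at 0.455%. With the summit required inside the promoter, that pattern was found for 1 member, Pdpn. The same held with BPA 2 left out, which makes the pattern easier to meet. Flt4 had no promoter peak in any library, and Pdpn and Reln had one in libraries of both groups.

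**Figure D1:**
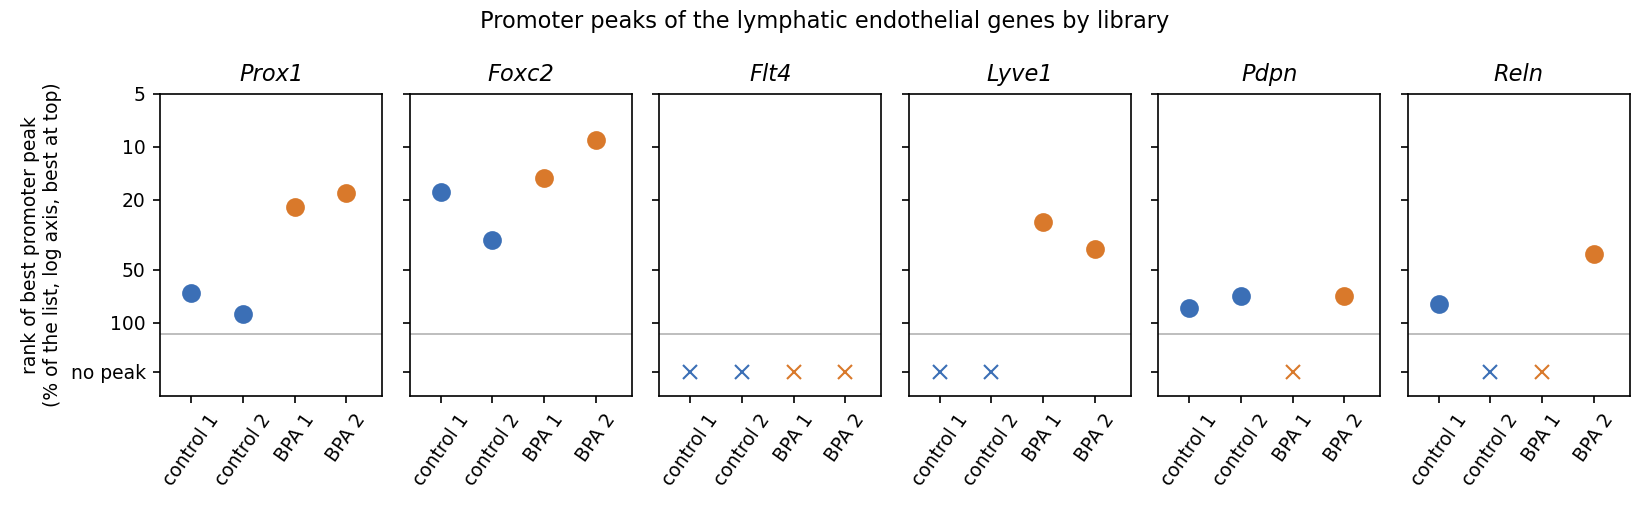
Rank of the best promoter peak of each gene (vertical axis, percent of the library's peak list by q-value, log scale with the best ranks at the top) in each of the 4 libraries (horizontal axis). Blue points are controls, orange points BPA libraries and crosses libraries without a promoter peak. Prox1 rises from 67.7% and 89.4% in controls to 21.9% and 18.3% in BPA, Lyve1 has peaks in the BPA libraries only, and Flt4 has none.

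The sequence that could be shown at the promoter with the widest separation of ranks is that of Prox1, and 3 peak centres outside promoters are shown beside it. They are the BPA-only region upstream of Lyve1, the control-only region of Pdpn and, for comparison, the best-ranked region of Pdpn that all 4 libraries shared. The Prox1 window is from RefSeq and runs on the minus strand from 250 bases before the outer start site to 30 bases from it (mm10, chr1:190170798-190171077). The summits of the Prox1 promoter peaks lay beyond the end of this window, and the peak of control 2 did not reach it. The peak centres are 200 bases of the plus strand of mm10 at the median summit. Capitals mark matches, on either strand, to 7 motifs of 6 letters, which were GGAAGT for ETS factors, TAAACA for forkhead factors, AACAAT for SOX factors, AGGTCA for nuclear receptors, AGATAA for factors of the GATA family, GGGCGG for the GC box and TATAAA for the core promoter element called the TATA box.
Prox1 promoter: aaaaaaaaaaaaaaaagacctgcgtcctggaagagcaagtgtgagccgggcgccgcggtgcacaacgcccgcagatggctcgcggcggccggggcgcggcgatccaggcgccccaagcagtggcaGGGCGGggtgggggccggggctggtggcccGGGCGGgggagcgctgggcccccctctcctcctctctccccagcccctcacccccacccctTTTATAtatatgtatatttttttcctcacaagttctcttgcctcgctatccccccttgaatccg
Lyve1 upstream, chr7:110881995-110882194: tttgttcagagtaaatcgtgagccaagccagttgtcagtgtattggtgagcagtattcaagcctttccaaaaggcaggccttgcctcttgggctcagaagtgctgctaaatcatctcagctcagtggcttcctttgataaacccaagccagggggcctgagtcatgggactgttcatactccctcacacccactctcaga
Pdpn control-only, chr4:143296171-143296370: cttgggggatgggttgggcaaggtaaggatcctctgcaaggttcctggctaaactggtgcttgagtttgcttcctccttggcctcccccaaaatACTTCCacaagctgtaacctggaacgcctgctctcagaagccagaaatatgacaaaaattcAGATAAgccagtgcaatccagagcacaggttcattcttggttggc
Pdpn shared, chr4:143288760-143288959: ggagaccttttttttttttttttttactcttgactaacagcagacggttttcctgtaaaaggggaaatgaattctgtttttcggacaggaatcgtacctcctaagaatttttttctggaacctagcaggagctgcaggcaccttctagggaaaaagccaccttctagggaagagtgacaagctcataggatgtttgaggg
The Prox1 window held 2 GC boxes, a motif in 34.7% of 32851 RefSeq promoter windows of this length, and a reverse TATA box, a motif in 13.1%. The control-only region of Pdpn held a reverse ETS match, found in 18.2% of such 200-base windows over all regions, and a GATA match, found in 10.9%. The other 2 windows shown held none of these letters. A window at the inner start site of Prox1 (190169515), not shown, was searched as well. It held a reverse forkhead match, a motif in 12.9% of the promoter windows, and a GC box. Motifs this short occur often, and a match is a description of the letters only.

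Prox1 lies on the minus strand of chromosome 1 (chr1:190118035-190170827) and has 2 curated start sites, at 190170827 and 190169515. Its promoter peak ranked at 67.7% in control 1 and 89.4% in control 2, and at 21.9% in BPA 1 and 18.3% in BPA 2. The peak was thus among the weaker ones of both control lists and in the stronger part of both BPA lists, with no overlap of the groups. The pile-up at the summit was 20 reads over a local background of 5.64 in control 1 and 15 over 4.67 in control 2. It was 39 reads over 4.33 in BPA 1 and 98 over 13.6 in BPA 2. The fold averaged 2.99 ± 0.242 (SD, n = 2) for controls and 7.14 ± 0.528 (SD, n = 2) for BPA, a gap larger than the spread between replicates and in the direction that most promoters took. The summits of these peaks lay between 72 and 311 bp inside the outer start site, in the first exon, whose annotation is 5′ UTR. The peak of BPA 2 was 2159 bp wide and spanned both start sites, whereas these peaks of the controls were 326 and 237 bp wide. Control 1 had a further peak of 626 bp between the start sites (chr1:190169720-190170345), ranked at 90.5%, with its summit in intron 1. The antisense RNA gene Prox1os starts under the same peaks, and accessibility has no strand, so the peaks cannot be given to either gene alone. Elsewhere in the 72.79 kb from 20 kb upstream to the gene end, the body of Prox1 had no further region of accessibility, and BPA 1 alone had a peak 4287 bp upstream, ranked at 98.4%.

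Foxc2 is a short gene on the plus strand of chromosome 8 (chr8:121116171-121118895), and its promoter held the strongest peaks of the 6. They ranked at 18.1% and 33.8% in the controls and at 15.1% and 9.14% in the BPA libraries. Both BPA libraries ranked better than both controls, but BPA 1 and control 1 lay close together. The fold averaged 4.95 ± 0.114 (SD, n = 2) for controls and 8.75 ± 0.160 (SD, n = 2) for BPA. Its locus held 3 regions, each with a peak in all 4 libraries. One lay 2711 bp upstream and had the reverse order, at 20.9% and 34.5% in controls against 42.4% and 38.5% in BPA. Another lay 7824 bp upstream at the promoter of the neighbouring gene Mthfsd and ranked at 10.4%, 15.4%, 6.47% and 5.81% in the order of controls, then BPA libraries. With that region included, Foxc2 had 13.2 peaks per 100 kb in every library, where whole lists gave 2.66 to 3.60.

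Over all genes with a promoter peak in at least 1 library, 39.8% ranked better in both BPA libraries than in both controls, and 16.5% ranked better in both controls. Of the 5 members with such a peak, Prox1, Foxc2 and Lyve1 followed the first pattern and none the second. With so few genes that count cannot be set apart from the background. Leaving out a library loosens the rule, so such counts could only stay or rise. The members following the first pattern numbered 5 without BPA 1. Without BPA 2 the 1 gene ranked better in both controls was Pdpn. The background also moved with base composition. Among protein-coding genes the share ranked better in BPA was 22.4%, 32.5%, 42.1%, 49.3% and 55.7% over 5 classes of about equal size from the lowest to the highest promoter G+C content. The promoters of Lyve1, Foxc2 and Prox1, at 46.6%, 55.7% and 60.1% G+C, fell in classes 1, 2 and 3. Those of Pdpn, at 53.2%, and Reln, at 77.0%, fell in classes 2 and 5 and did not follow the pattern.

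Flt4, the receptor for the lymphatic growth factors, lies on the plus strand of chromosome 11 (chr11:49609679-49652739). Its promoter had no peak in any library at a G+C content of 62.9%, so promoter accessibility was not detectable at this depth. Inside the locus, control 1 had a single peak in intron 7 ranked at 98.9% and control 2 a single peak in coding exon 19 ranked at 97.1%, both near the end of their lists. BPA 1 had 2 peaks and BPA 2 had 4. Of the regions under them, 2 were present in both BPA libraries and neither control. The region in intron 1, 12504 bp from the start site (chr11:49622035-49622657), ranked at 57.6% in BPA 1 and 75.5% in BPA 2. The region 41520 bp from the start site (chr11:49650543-49651632), in the 3′ UTR of the last exon, ranked at 75.5% and 76.5%. The best-ranked peak of BPA 2, at 28.6%, straddled the gene end with its summit outside. Under the same merged region, but beyond the gene, peaks ranked at 53.1% in control 2 and 51.1% in BPA 1. Those peaks lay outside the locus and were not counted in it.

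Lyve1, the hyaluronan receptor, lies on the minus strand of chromosome 7 (chr7:110850607-110862953). Its promoter peak ranked at 26.9% in BPA 1 and 38.1% in BPA 2, with pile-ups of 32 and 46 reads over local backgrounds of 3.60 and 6.84 and a mean fold of 6.58 ± 0.837 (SD, n = 2). Neither control had a peak there. In list length and lowest background both controls lay between BPA 1, which had the lower values, and BPA 2, which had the higher. The median promoter fold given above was lower in both controls, at 6.19 and 6.97 against 10.8 and 9.89 in BPA. The part of these library differences in the Lyve1 result was not tested. Among 2454 protein-coding genes with a promoter peak in 1 to 3 libraries, 21.5% had one in both BPA libraries and neither control. A second BPA-only region lay 19141 bp upstream (chr7:110881820-110882363) and ranked at 21.7% in BPA 1 and 66.3% in BPA 2, and its centre is the second sequence printed above. The gene body went the other way or was mixed. In a merged region of intron 3, peaks ranked at 49.8% in control 1, 32.6% in control 2 and 58.5% in BPA 1, with none in BPA 2. The peaks of control 2 and BPA 1 did not overlap each other and were joined only by that of control 1, so their ranks belong to different sites. In intron 1, they ranked at 41.6% in control 1, 57.4% in BPA 1 and 89.9% in BPA 2, with none in control 2. The best peak of the whole locus therefore overlapped between groups, at 41.6% and 32.6% in controls against 21.7% and 38.1% in BPA.

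Since Lyve1 is also known in macrophages, their promoters were counted beside it. Of 6 macrophage genes, 1 had a promoter peak in each control, against 3 in BPA 1 and 4 in BPA 2. Cd68, a lysosomal glycoprotein, and Mrc1, the mannose receptor, had peaks in both BPA libraries and neither control. That pattern was seen at 2.65% of all genes and at 21.5% of coding genes with a promoter peak in 1 to 3 libraries. Cd68 ranked at 24.2% in BPA 1 and 71.7% in BPA 2, and Mrc1 at 42.4% and 34.0%. Adgre1, which encodes F4/80, had peaks in all 4 libraries, and the defining genes Csf1r and Cd163 had none in any. The part of macrophages in the Lyve1 result was not tested.

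Pdpn, the ligand of Clec1b, lies on the minus strand of chromosome 4 (chr4:143267409-143299564) and had more peaks than any other member, 7 in each control and 5 in each BPA library. Its promoter peak was weak throughout, at 81.9% in control 1, 70.2% in control 2 and 70.1% in BPA 2, with none in BPA 1. The summits lay 45 bp from the start site in control 1 and 307 bp from it in control 2. That of BPA 2 lay 709 bp from it, in intron 1 and outside the promoter of 500 bp, so this peak counted by overlap only. Most of its accessibility lay in introns. Of its 7 regions, 4 had a peak in all 4 libraries. In intron 1, 20916 bp from the start site (chr4:143278182-143280415), these ranked at 16.6% and 15.4% in controls against 30.0% and 33.1% in BPA. In intron 3, 27779 bp from the start site (chr4:143271563-143272158), they ranked at 27.1% and 23.2% in controls against 60.0% and 65.0% in BPA. Both regions were thus stronger within the control lists, and the groups did not overlap. Of all merged regions with a peak in all 4 libraries, 27.5% ranked better in both controls. The best shared region of Pdpn, 10704 bp from the start site (chr4:143288115-143289370) and shown above, did not separate the groups, at 19.3%, 22.9%, 25.7% and 13.6% in the same order. A region 3294 bp from the start site in intron 1 (chr4:143295689-143296721) had a peak in both controls and neither BPA library, ranked at 67.3% and 55.2%.

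Pdpn marks mesothelium and fibroblasts as well, and the promoters of both were counted. Of 4 mesothelial genes, 3 and 2 had a promoter peak in the controls, against 2 and 1 in the BPA libraries. Wt1, a transcription factor of mesothelium, had one in all 4 libraries, ranked at 30.9% and 26.1% in controls and 20.5% and 20.9% in BPA. Upk3b, a uroplakin named after its values were seen, ranked at 34.2% and 35.3% in controls and 52.2% in BPA 1, with no peak in BPA 2, while Msln had none in any library. Of 5 fibroblast and progenitor genes, 3 had a promoter peak in each control and 5 in each BPA library, with Dpt, which encodes dermatopontin, and Pi16, a progenitor marker, in the BPA libraries only. A peak in both BPA libraries and neither control was seen at 2.65% of all genes. Among coding genes with a promoter peak in 1 to 3 libraries, the share was 21.5%. The part of either cell type in the Pdpn result was not tested.

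Reln, the secreted glycoprotein, spans most of its 480.3 kb locus on the minus strand of chromosome 5 (chr5:21884454-22344705). Its promoter had a peak in control 1, ranked at 77.8%, and in BPA 2, ranked at 40.5%, and none in control 2 or BPA 1. The pile-ups were 17 reads in control 1 and 40 in BPA 2. One library of each group thus had a peak, and no difference between groups was seen. The locus was sparse, with 4 peaks in each control, 0 in BPA 1 and 2 in BPA 2, or at most 0.833 per 100 kb. Of its 9 regions, 8 had a peak in 1 library only. Reelin signals in neurons through Vldlr and Lrp8, and both receptors had promoter peaks in all 4 libraries. Vldlr ranked at 10.8% and 17.1% in controls and at 32.4% and 17.4% in BPA. Lrp8 ranked at 25.3%, 33.1%, 20.2% and 17.3% in the same order. Of 3 neuronal genes, 2 had a promoter peak in each of the 4 libraries (Snap25 and Syt1), and Rbfox3 had none.

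**Figure D2:**
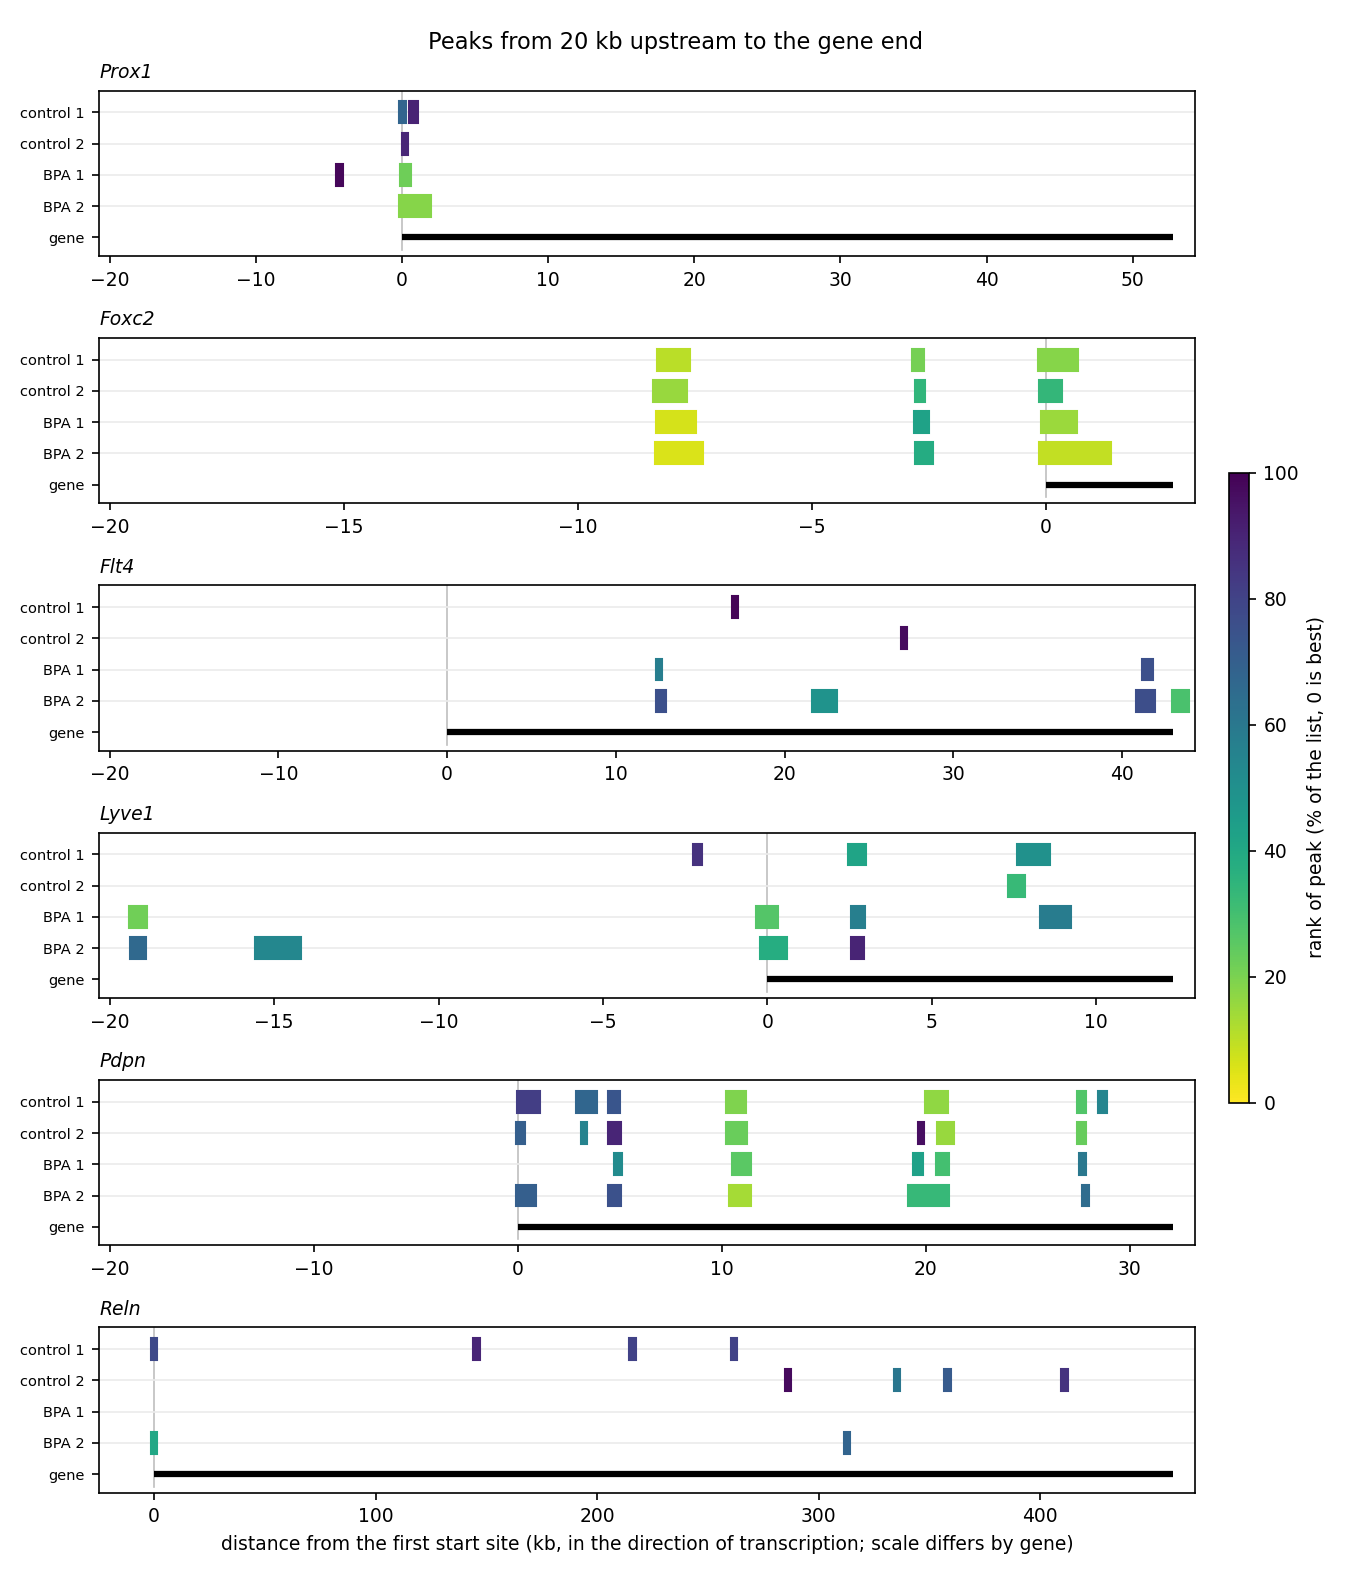
Peaks of each gene from 20 kb upstream of its first start site to the gene end (horizontal axis, distance from the start site in kb in the direction of transcription, on a scale of its own for each gene), with 1 row for each library and a black bar for the gene. Colour gives the rank of the peak in its library, from yellow for the best to dark purple for the last, and narrow peaks are drawn wider than they are so that they can be seen. Foxc2 has the same 3 regions in every library, Pdpn has most of its regions in introns, Flt4 has more peaks in the BPA libraries and the few peaks of Reln differ from library to library.

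Taking the 6 loci as a whole, the controls had 20 and 17 peaks and the BPA libraries 16 and 19. Per 10000 peaks of a list this was 2.17 ± 0.359 (SD, n = 2) for controls and 2.07 ± 0.193 (SD, n = 2) for BPA, and the replicates differed by more than the groups. The order of these means turned among stronger peaks, to 1.70 in controls and 2.44 in BPA at a −log10 q-value of 5 or more, and to 1.75 and 2.50 among the best 20000 peaks of each list. Prox1, Foxc2 and Flt4 had a best locus peak that ranked better in both BPA libraries than in both controls, a pattern at 33.2% of all genes with a locus peak, and no member had the reverse, found at 22.2%. For Foxc2 that peak belonged to the promoter of Mthfsd. For Flt4 the best peak of BPA 2 straddled the gene end, and the control 2 peak beyond that end was not counted. The peaks of the 6 loci merged into 33 regions. Of these, 4 were BPA-only, all at Lyve1 and Flt4, and 1 was control-only, at Pdpn. Over all 147146 merged regions these shares were 9.40% and 5.33%. Leaving out a library loosens the rule for both patterns, so these counts could then only stay or rise. There were 8 BPA-only regions without BPA 1. Only peaks that overlapped a locus were merged for this count. It includes the region at the Flt4 gene end, where control 2 had a peak beyond the locus. Control-only regions numbered 7 without control 1 or without control 2, and 2 without BPA 1 or without BPA 2. Of the 8 regions with a peak in all 4 libraries, 3 ranked better in both BPA libraries (the promoters of Prox1, Foxc2 and Mthfsd) and 3 ranked better in both controls (2 in introns of Pdpn and 1 upstream of Foxc2). The shares over all such regions were 27.7% and 27.5%. With all listed peaks, the lymphatic loci as a group thus followed no single direction, and their counts were near those of all regions. At a −log10 q-value of 5 or more, 6 regions were BPA-only and 0 control-only. The shares over all regions were not computed at that threshold.

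The wider pathway was followed in 33 further genes in 5 lists. The fifth list held Clec1b, Vldlr, Lrp8 and Dab1, which were taken for their part in Pdpn and Reln signalling. Of the 33 genes, 24 had promoter peaks in every library and 5 had none in any. A promoter peak was found for 26 and 24 of them in the controls and for 28 in each BPA library. A peak in both BPA libraries and neither control was found for 2 of 33, beside 2.65% of all genes, and the reverse for none. Among the 28 with a promoter peak in at least 1 library, the promoter ranked better in both BPA libraries for 17 and in both controls for 3, beside the 39.8% and 16.5% of all genes given above. Of the 6 genes for ligands and their processing, 3 ranked better in BPA and 2 in controls, so the growth factors had no common direction. Of the 8 receptors and surface or secreted markers, 4 had no promoter peak in any library, among them Ccl21a, the chemokine of lymphatic endothelium, and 3 of the other 4 ranked better in BPA. Nrp2, the coreceptor of Flt4, was one of those, at 11.9% and 24.5% in controls against 11.0% and 6.42% in BPA. Calcrl, the adrenomedullin receptor, ranked at 7.71% and 16.7% in controls and at 13.9% and 10.3% in BPA, which overlapped.

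Of the 8 lymphatic transcription factors, 6 ranked better in both BPA libraries and none in both controls, where 39.8% of all genes with a promoter peak ranked better in BPA. Sox18, which acts upstream of Prox1, had no promoter peak in either control and ranked at 36.0% in BPA 1 and 21.1% in BPA 2. Tbx1 had the same pattern with weak peaks, at 82.4% and 61.5%. Klf2, a factor induced by flow, and Foxc1, the close relative of Foxc2, had promoter peaks in every library and did not separate the groups. Klf2 ranked at 5.26% and 2.65% in controls and at 2.68% and 3.28% in BPA, and Foxc1 at 8.96%, 5.93%, 14.0% and 8.09% in the same order. Of the 7 valve and junction genes, all had promoter peaks in all 4 libraries and 4 ranked better in BPA. The ephrin Efnb2 was one of those, at 5.85% and 4.98% in controls against 4.27% and 3.24% in BPA, and its receptor Ephb4 was not, at 18.0% and 8.23% against 11.5% and 10.8%.

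Genes of blood vessels and of endothelium in general were set beside the lymphatic ones, because most of them are active in both. Of 12 such genes, 4 had a promoter peak in control 1, 3 in control 2 and all 12 in each BPA library, where the shares of all protein-coding genes given above lay between 61.4% and 67.4%. The pattern of Lyve1, in both BPA libraries and neither control, was found for 8 of 12, beside 2.65% of all genes and 21.5% of coding genes with a promoter peak in 1 to 3 libraries. These were Pecam1 and Cdh5, which encode junction proteins, the receptors Tie1, Robo4 and Eng, the transcription factor Erg, the sialomucin Emcn and the secreted Egfl7. Their ranks lay between 8.44% (Tie1 in BPA 2) and 38.2% (Robo4 in BPA 1). Kdr, the receptor VEGFR-2, had peaks in all 4 libraries, at 32.4% and 33.0% in controls against 14.6% and 11.3% in BPA. Esam, a junction protein, overlapped, at 35.5%, 22.9%, 30.4% and 17.2% in the same order. Flt4, which belongs to the same receptor family as Kdr, had no promoter peak in any library. The part of endothelial cell number in the ranks of Prox1, Lyve1 and Foxc2 was not tested.

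**Figure D3:**
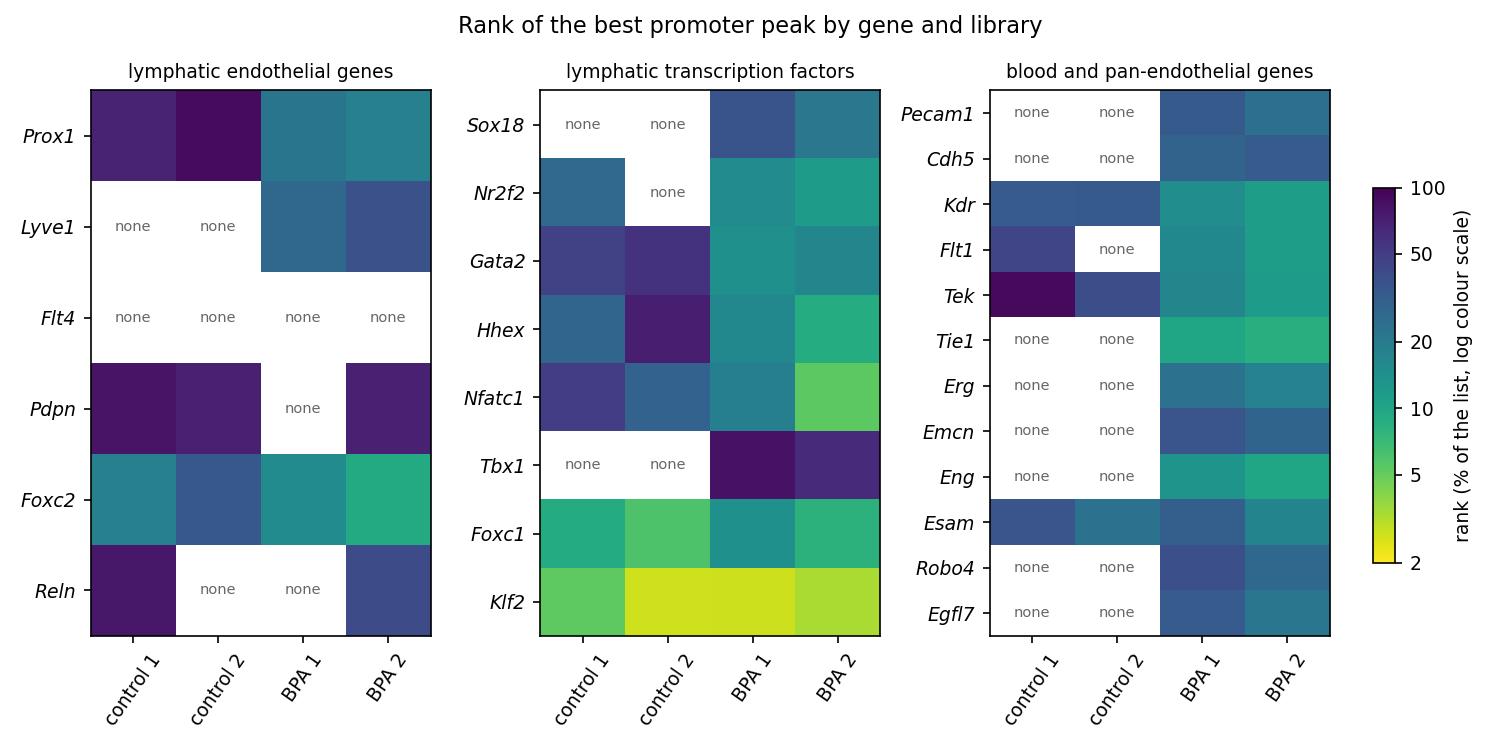
Rank of the best promoter peak (colour, percent of the library's list on a log scale, yellow for the best) for the 6 lymphatic endothelial genes, the 8 lymphatic transcription factors and the 12 blood and pan-endothelial genes (rows) in the 4 libraries (columns), with "none" where a library had no promoter peak. The pattern of Lyve1, empty in both controls and filled in both BPA libraries, is found for 8 of the 12 genes on the right and for Sox18 and Tbx1 in the middle.

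The genes most like the members by rank were sought in the wider lymphatic and the general endothelial lists only, so that macrophage, fibroblast and other lists could not supply them. Likeness was the mean absolute difference in log10 rank among genes with peaks in the same libraries, which were 27 genes for Prox1 and for Foxc2 and 10 for Lyve1. Prox1 was nearest to Adm, the peptide adrenomedullin, at 0.124 and to Gata2, a transcription factor, at 0.150, both over 4 libraries. Lyve1 was nearest to Cdh5 at 0.0527 and to Emcn at 0.124, over the 2 BPA libraries. Foxc2 was near to Kdr at 0.0920, over 4 libraries.

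**Figure D4:**
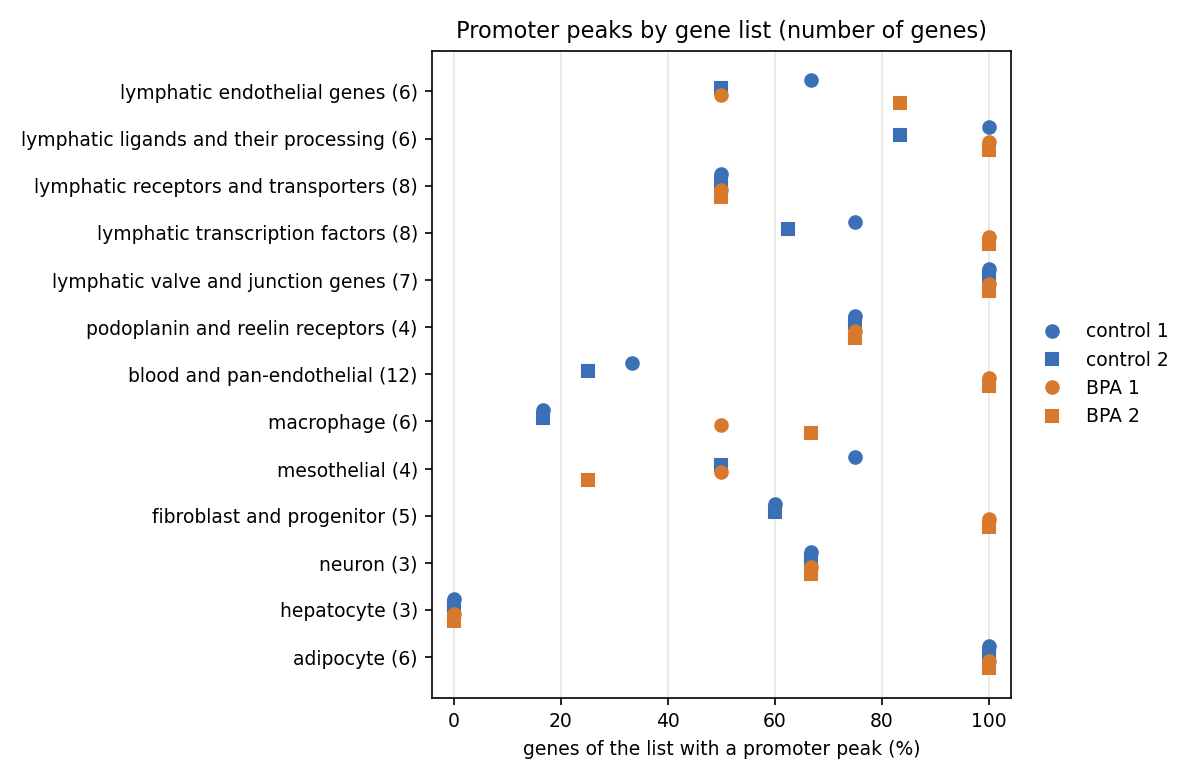
Share of the genes of each list with a promoter peak (horizontal axis, percent, number of genes in brackets) in each library (blue circle, control 1; blue square, control 2; orange circle, BPA 1; orange square, BPA 2; points are offset vertically within a list). The blood and pan-endothelial list goes from 4 and 3 of 12 genes in controls to 12 of 12 in BPA, the 6 lymphatic endothelial genes overlap between groups and the adipocyte list is complete in every library.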

How the data were processed

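ATAC-seq peak lists of 4 adipose libraries were used, 2 control and 2 BPA, grouped by their labels. Per the labels and the study's methods, the authors trimmed reads with Trim Galore, mapped them to mm10 with Bowtie2 2.3.5.1, kept uniquely mapped reads, removed duplicates with SAMtools and ran the peak caller MACS2 2.2.7.1 on single libraries, without pooling. The deposited columns used were the fold (a ratio of summit pile-up to local background), the −log10 p-value, the −log10 q-value and the summit; the deposited score, a whole-number form of the q-value, was not used. All lists stopped at a q-value of 0.05. They hold no read totals, so depth was read from the lowest local background.

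Peaks were ranked by q-value, and pile-up and local background were solved from fold and p-value (relative tolerance 0.0001). Presence calls, ranks and solved pile-ups were tested on simulated data. A promoter was 500 bp either side of any curated RefSeq start site, and a locus ran from 20 kb upstream of the first start site to the gene end. Any overlap counted. Peaks of the 4 libraries were merged into 147146 regions. Motifs were sought in RefSeq promoters of 32851 entries, in which 4 of the 6 members were found (Prox1, Flt4, Pdpn, Reln), and in 147142 summit windows. Python 3.11.15, numpy 2.4.6, scipy 1.17.1, pandas 2.3.3, pysam 0.24.0 and matplotlib 3.10.9 were used.

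The members and gene lists were chosen with earlier results of these data known. Named were all members, every listed gene or locus region present in both libraries of 1 group only, at most 2 genes per list and 3 regions per locus shared by all 4 libraries with the best worst rank, and the 2 genes most like each member, of which 1 is not reported here. Alternatives were a stricter q-value, fewer peaks, other promoter and locus limits, summits in place of peaks, a 50% overlap and leaving out each library. The comparisons by coding genes and by 5 classes of G+C content were added after seeing the data.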

Additional observations from a re-analysis of the deposited data

How the results depend on the processing

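Of 98 alternatives of the main counts 71 stayed within the spread between replicates or within 1.5 times the reported count. At a stricter threshold, a −log10 q-value of 5, the mean number of members with a promoter peak fell to 1.00 in controls, Prox1 joined Lyve1 so that 2 members were found in both BPA libraries only, the peaks at member loci per 10000 became 1.70 in controls and 2.44 in BPA, and 0 control-only regions remained. With the best 20000 peaks of each list the means were 0.500 members in controls and 2.50 in BPA, the peaks per 10000 were 1.75 and 2.50, and 1 BPA-only region was left. With equal numbers of peaks, the peaks per 10000 were 1.93 in controls and 2.14 in BPA, 1 member (Pdpn) ranked better in both controls and 2 regions were BPA-only. With the summit inside the promoter, Pdpn was the 1 member found in both controls only and the 1 ranked better there. The peaks per 10000 were 1.59 in BPA over gene bodies, 2.81 in controls and 2.93 in BPA with 50 kb upstream, and 1.83 in BPA without promoters of other genes. When the peaks of a group had to share 50% of both lengths, 0 regions were control-only. Leaving out a library loosens the rule for each pattern, so counts of members or regions that follow a pattern could then only stay or rise. Leaving out each library in turn gave 2 to 7 control-only regions (7 without control 1 or control 2, 2 without BPA 1 or BPA 2), 4 to 8 BPA-only regions (8 without BPA 1), 3 to 5 members ranked better in BPA (5 without BPA 1), and 0 to 1 members found in controls only or ranked better there (1 without BPA 2). These region counts merged only peaks that overlapped a locus. The 8 include the region at the Flt4 gene end, where control 2 had a peak beyond the locus. The mean peaks per 10000, higher in controls as reported, were thus higher in BPA at the stricter threshold, with the best 20000 peaks, with equal numbers and with 50 kb upstream, and also without control 1 (1.91 against 2.07) and without BPA 2 (2.17 against 2.21). The mean number of members with a promoter peak, higher in BPA as reported, was lower in BPA without BPA 2 (3.50 against 3.00). Control-only regions outnumbered BPA-only ones without control 1 (7 against 5) and without control 2 (7 against 4). With a control left out, however, control-only needed a peak in 1 library and BPA-only still in 2. These counts followed unlike rules and cannot be compared. The causes of these moves, beyond fewer libraries or peaks, were not tested.

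No paired analysis was possible because no test compared the groups. The lists hold only called peaks, so a site without a peak is not shown to lack reads.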
